A study of Mus musculus with 24 samples.

Results

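Platelets are small cells without a nucleus that stop bleeding, and they are shed into the blood by megakaryocytes, large cells of the bone marrow and, around birth, of the liver and spleen. Platelets keep RNA from the megakaryocyte, so RNA of whole blood holds transcripts of platelet proteins. In an injured vessel platelets hold on to von Willebrand factor and collagen, are activated, release their granules and are bound to each other by fibrinogen. The 10 genes described here, Pf4, Ppbp, Gp1ba, Gp1bb, Gp9, Gp5, Gp6, Itga2b, Tubb1 and F13a1, are markers of this cell type. They were found by symbol, and each matched 1 row of the 48709 genes counted. The list was drawn up with earlier results of these data known.

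The counts came from RNA-seq of whole blood and cerebral cortex of mouse neonates (C57BL/6J per the labels, 3 to 5 days old) whose dams breathed nano-sized particulate matter (nPM) or filtered air during pregnancy. The study's methods give another substrain, C57BL/6NJ, and an age of 5 days. The labels give a dose of 300 mg/m3, whereas the methods give the same figure in micrograms, and exposure was 5 h long, on 3 days of each week, and began on gestational day 2 per the labels. Each tissue had 12 libraries, 6 after nPM and 6 controls under filtered air, with 3 of each sex in every group. No transgene or mutation is named. Nothing in the labels ties a library to a pup or litter, so p-values measure only the spread between these libraries. The study describes its blood and cortex as taken from the same animals, and the pups of each sex and exposure as from different litters.

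The control female library V2 stood apart from the other blood libraries. It had a count on 22461 genes, against 13254 to 17273 in the other 11, and globin genes took 50.1% of its counts, against 66.2 to 76.8%. It was left out of the main blood comparisons, which held 6 nPM libraries (V1, V3 and V18 from females, V5, V7 and V21 from males) and 5 controls (V4 and V17 from females, V6, V8 and V22 from males). Results with V2 are given beside those without it. V5 carried neuronal transcripts, with 360 counts of Map2, 81 of Snap25 and a summed level of 45.4 CPM (counts scaled to the library's total) over 10 neuronal genes, where the 4 libraries of sequencing lane 3 had 8.87 to 12.2 CPM and the other 6 had 1.25 to 3.31 CPM.

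The blood libraries held 13595647 to 21895536 counts on genes and the cortex libraries 22301409 to 33804371. The labelled tissues were checked against their markers. In blood the erythroid list had 9 of 9 genes with counts and Hbb-bs was its most abundant gene in every library, while Cldn5, a tight junction gene of endothelium, had 0 to 6 counts in the 11 libraries. In cortex the 10 neuronal markers were found in every library, with a summed level of 7466 to 8435 CPM. Fewer platelets and less RNA per platelet cannot be told apart in such libraries.

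The chemokine genes Ppbp and Pf4 lie beside each other on chromosome 5 with 2371 bases between them. To describe what the 10 genes share, their promoters were searched for short motifs that factors of megakaryocytes are known to bind. These were GATAA (GATA factors), GGAAG (ETS factors) and TGTGGT (RUNX factors). The sequences are RefSeq promoters of GRCm38.p6 (the mm10 build), from 250 bases before to 50 after the transcript start, and all 10 genes matched, F13a1 with 2 starts. Shown 5′ to 3′ on the gene's own strand are Ppbp and Gp5, which had the smallest p of the 10 genes for a difference between the sexes, Pf4 as the neighbour of Ppbp, and Gp9, the promoter in which all 3 motifs were found. Capitals mark the motifs on either strand, and neighbouring matches that touch run together. On the other strand the GATA motif is written as TTATC, the ETS motif as CTTCC and the RUNX motif as ACCACA.
Ppbp (chr5:90768268-90768567, plus strand): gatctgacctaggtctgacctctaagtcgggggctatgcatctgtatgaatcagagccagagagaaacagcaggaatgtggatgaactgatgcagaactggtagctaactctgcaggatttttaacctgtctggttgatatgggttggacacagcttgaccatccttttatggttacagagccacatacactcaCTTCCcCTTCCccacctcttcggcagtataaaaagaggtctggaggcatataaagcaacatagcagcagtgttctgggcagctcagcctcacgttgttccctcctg
Pf4 (chr5:90772185-90772484, plus strand): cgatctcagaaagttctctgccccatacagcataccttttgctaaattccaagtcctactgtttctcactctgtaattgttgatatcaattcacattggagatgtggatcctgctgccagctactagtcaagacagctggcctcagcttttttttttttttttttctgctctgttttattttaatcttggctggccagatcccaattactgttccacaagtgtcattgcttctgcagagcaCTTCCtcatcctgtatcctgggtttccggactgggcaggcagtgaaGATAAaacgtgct
Gp5 (chr16:30310732-30311031, minus strand): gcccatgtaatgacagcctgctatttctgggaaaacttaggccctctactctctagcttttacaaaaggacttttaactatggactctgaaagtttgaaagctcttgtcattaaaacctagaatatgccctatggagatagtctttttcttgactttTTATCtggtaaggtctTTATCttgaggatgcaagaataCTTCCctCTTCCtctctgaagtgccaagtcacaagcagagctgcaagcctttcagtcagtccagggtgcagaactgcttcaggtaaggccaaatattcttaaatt
Gp9 (chr6:87777820-87778119, plus strand): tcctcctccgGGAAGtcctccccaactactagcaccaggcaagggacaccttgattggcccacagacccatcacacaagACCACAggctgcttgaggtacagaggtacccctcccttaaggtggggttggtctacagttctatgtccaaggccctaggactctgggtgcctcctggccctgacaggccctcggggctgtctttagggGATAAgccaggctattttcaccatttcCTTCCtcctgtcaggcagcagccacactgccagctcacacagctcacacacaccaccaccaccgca
GATAA was found in 6 of the 11 promoters of the 10 genes and in 25.4% of 32817 mouse promoters of the same length. GGAAG was found in 11 of 11, beside 71.4% of all, and TGTGGT in 1 of 11 (Gp9), beside 16.8%. Both GATAA and GGAAG lay in the promoters of 6 genes, Pf4, Gp9, Gp6, Gp1ba, F13a1 and Gp5, and in 17.3% of all promoters. A match describes the letters only. The RefSeq start lay 100 bases before the start in the count annotation for Tubb1 and 239 bases from it for Itga2b, and the second F13a1 start lay 1031 bases from it.

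All 10 genes had counts in each of the 11 blood libraries compared, from 58 counts of Gp1ba to 3019 of Ppbp, and V2 had 50 counts of Gp1ba. Levels are given as CPM scaled with TMM factors (trimmed mean of M values, which correct for the make-up of a library). Per 1 kb of gene length, the chemokines were the most abundant, with Pf4 at 66.5 ± 17.9 and Ppbp at 63.7 ± 31.0 scaled CPM per kb (SD, n = 11). Pf4 was above Ppbp in 6 of the 11 libraries, so their order was not fixed. Gp9, a small subunit of the von Willebrand factor receptor, and Tubb1, the tubulin of the platelet's marginal band, followed at 41.7 ± 9.53 and 39.2 ± 11.6, in this order in 8 of 11 libraries. Itga2b, the alpha chain of the fibrinogen receptor, was at 11.9 ± 3.30 and below Tubb1 in 11 of 11 libraries. Gp1bb (3.15 ± 1.18), F13a1 (2.94 ± 1.14) and Gp5 (2.86 ± 0.740) lay within their spread of each other. Gp6 was at 1.88 ± 0.599, below Gp5 in every library, and Gp1ba was lowest at 1.49 ± 0.320. In the von Willebrand factor receptor Gp1ba binds the factor, and the products of Gp1bb, Gp9 and Gp5 are its partners. Among these subunits the RNA of Gp9 was therefore far above the others per kb. For Gp1bb this level is uncertain, because 593 of its bases overlap the gene Sept5 on the same strand.

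The spread over the 11 libraries differed between the genes. Ppbp varied most, with a coefficient of variation of 48.7%, and Gp1ba least with 21.4%. The nPM female V3 was the highest of the 11 libraries in 10 of 10 genes, where it was highest in 16.7% of all 9977 genes tested. The control female V4 was the lowest in 8 of 10, the exceptions being Gp1ba (lowest in V5) and Gp6 (lowest in V18), and it was lowest in 13.7% of all genes tested. The summed scaled level of the 10 genes was 552 CPM in V3, 176 in V4 and between 228 and 366 in the other 9 libraries. Without TMM factors V4 was no longer lowest in the summed level, at 224 CPM against 211 in V17. It stayed the lowest for Ppbp, Gp1bb, Gp5 and Tubb1. The TMM factor of V4, 1.28, was the highest of the 11.

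**Figure D1:**
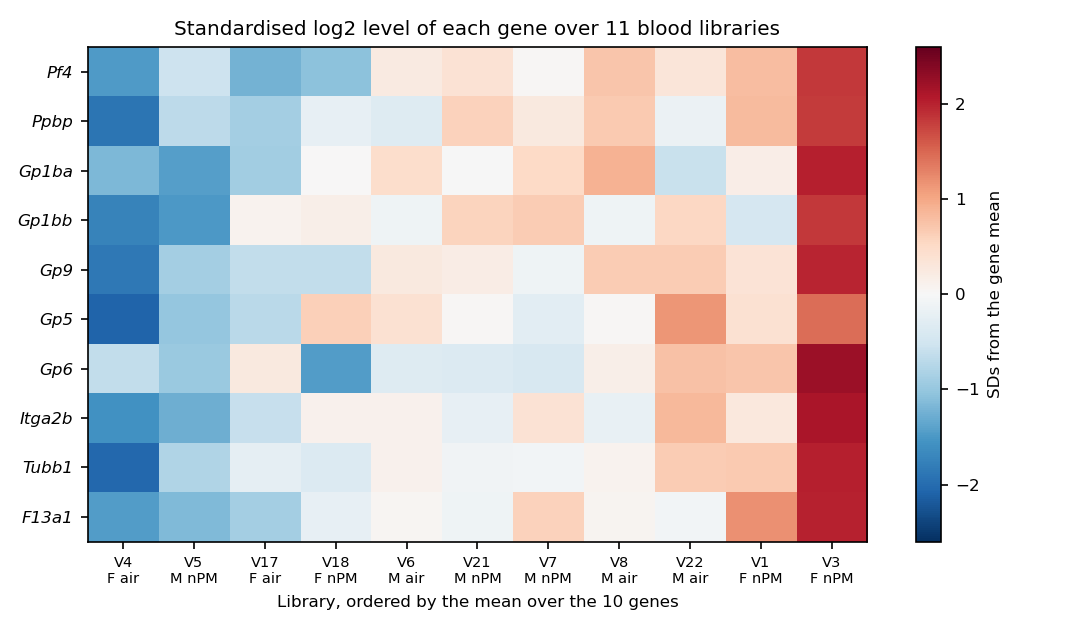
Standardised log2 level (SDs from the gene's mean, colour) of the 10 genes (rows) in 11 blood libraries (columns, ordered by the mean over the genes). The column of V3 is highest in every row, and V4 and V5, at the left, are low in most.

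Across these 11 libraries the log2 levels of the 10 genes went up and down together. Over the 45 pairs Pearson's r was 0.56 to 0.96 with a median of 0.82, and Spearman's rho was 0.34 to 0.94 with a median of 0.70. Without V3 and V4, the libraries farthest from the median of Pf4, r was 0.10 to 0.88 with a median of 0.54, so the likeness was weaker without those 2 libraries. All points share the scaling of their library. The genes most like the mean standardised profile of the 10, out of 6008 genes at a mean of 1 scaled CPM or more, were P2rx1, an ATP-gated channel of platelets (r = 0.98), Srgn, the granule proteoglycan serglycin (r = 0.98), and Alox12, the platelet lipoxygenase (0.97). They were followed by the ceramidase gene Acer2 (0.97), Clu, a secreted chaperone (0.96), and the cytoskeletal genes Tpm4, Cnn2 and Myl9 (0.96 each). Ilk, an integrin-linked kinase gene, and Pros1, which encodes the anticoagulant protein S, had r of 0.96 and 0.95. Over the 6008 genes the median r with the profile was 0.04, with 5% of them below -0.67 and 5% above 0.77.

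The first comparison asked whether the genes differed between pups of nPM and control dams, with sex and RNA integrity (RIN) in the model. Of the 10 genes 9 were higher after nPM and 1, Gp6, was lower, but no difference passed the test against the spread between libraries. The median log2 fold change of the 10 genes was 0.20, beside 0.00 over all 9977 genes tested with edgeR. None of the 10 had an adjusted p under 0.05 (0% of all genes), an unadjusted p under 0.005 (0.17%) or one under 0.05 (3.11%). The summed level was 1.23 times higher after nPM.

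Ppbp, the precursor of neutrophil-attracting chemokines of the alpha granule, had the largest difference. Its scaled level was 25.0, 40.7, 53.1, 57.8 and 86.7 CPM in the controls, and 44.9, 76.6 and 149 CPM (lowest, median and highest) in the 6 nPM libraries. The groups overlapped, since the control male V8 lay above most nPM libraries. On the log2 scale nPM was higher by 0.68 (SE 0.33, edgeR adjusted p = 1.00). An exact permutation test gave p = 0.121, two-sided, where 6 against 5 libraries allow no p under 0.00433. Pf4, the other chemokine, was at 31.4, 33.4, 49.4, 50.3 and 56.3 CPM in controls and at 35.1, 49.1 and 75.7 CPM after nPM. Its medians were almost equal, and its log2 fold change was 0.26 (SE 0.24, exact permutation p = 0.398). F13a1, the clot cross-linking subunit of factor XIII, was at 6.49, 7.97, 10.6, 11.1 and 11.2 CPM in controls and at 7.21, 11.97 and 22.0 CPM after nPM. Its log2 fold change was 0.48 (SE 0.26, exact permutation p = 0.186).

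The other 7 genes had log2 fold changes of -0.01 to 0.27. For Gp1bb the log2 fold change was 0.27 (SE 0.27), for Gp1ba 0.16 (SE 0.22), for Gp5 0.16 (SE 0.24) and for Gp9 0.13 (SE 0.22). Itga2b was at 41.8 to 78.1 CPM in controls and 45.4 to 109 CPM in nPM pups. Its log2 fold change was 0.20 (SE 0.24), and Tubb1 had 0.21 (SE 0.25). Gp6, the collagen receptor, was at 8.89 to 13.2 CPM in controls and at 7.04 to 19.997 CPM in nPM pups, with a log2 fold change of -0.01 (SE 0.24). The exact permutation p of these 7 genes was 0.424 to 0.900.

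Single libraries moved these values. Without V4 the median of the 10 genes was 0.03 and without V3 it was 0.07, whereas with V2 it was 0.53 and none of the 10 passed an unadjusted p of 0.05. In plain CPM, V2 lay below the 5 other controls in 8 genes, inside their range for Pf4 and above it for F13a1. In the fit with V2 its TMM factor was 6.95, and after this scaling V2 lay below the 5 other controls in 10 of 10 genes, with Pf4 at 5.57 CPM against 37.3 to 67.4 and F13a1 at 3.33 CPM against 7.71 to 13.3. The blood libraries ran on lanes 1 and 3. Within lane 1 the median log2 fold change was 0.30, with 10 of 10 genes higher, and within lane 3 it was 0.04, with 6 of 10 higher.

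**Figure D2:**
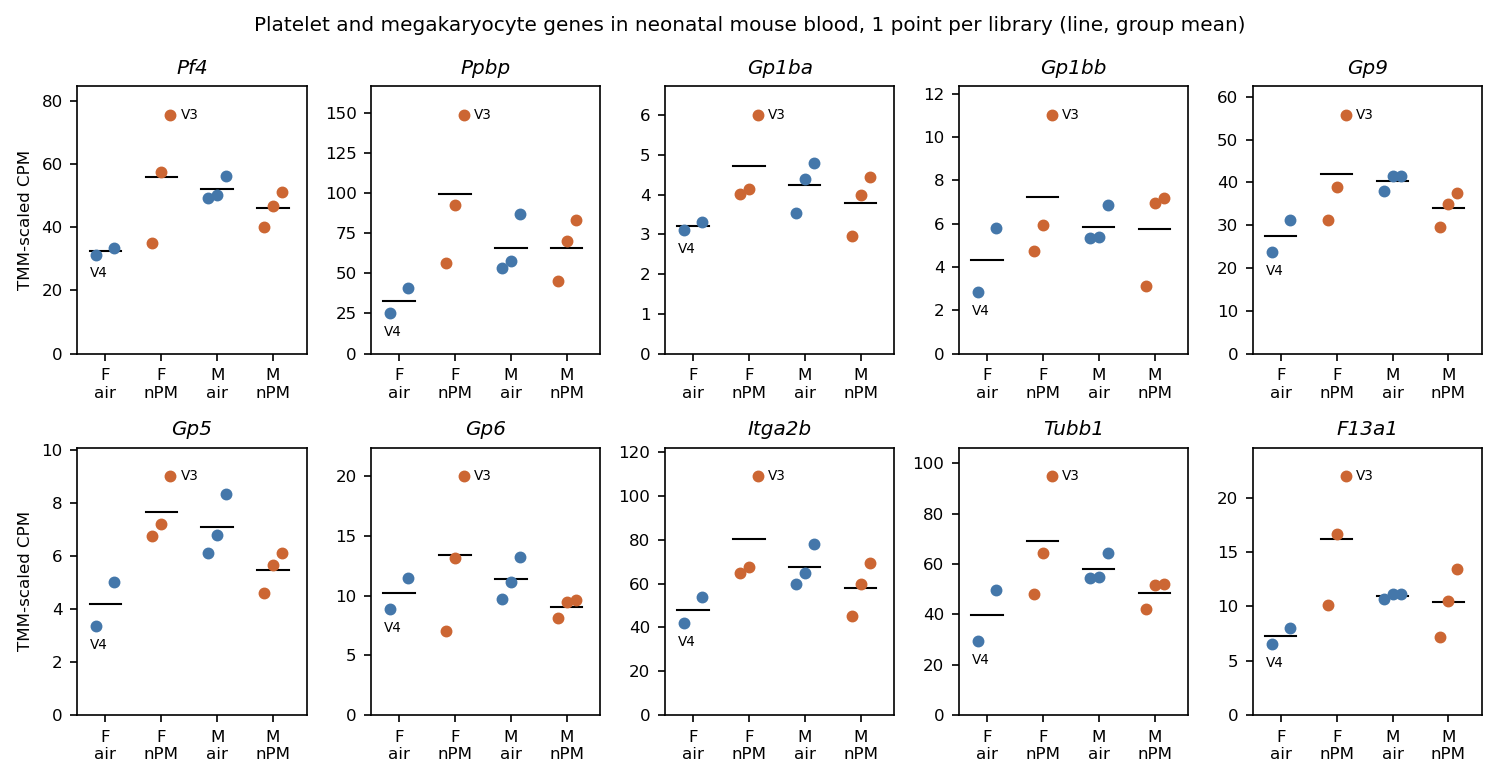
TMM-scaled CPM (y axes, from 0) of each gene in the 11 blood libraries by sex (F, M) and exposure (air or nPM), 1 point per library with a line at the group mean. The nPM female V3 is the highest point in each panel, and the control females, V4 and V17, lie low in most.

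The second comparison asked whether the difference between nPM and control depended on the sex of the pup, as the study's second model did. It was measured as the effect in males minus the effect in females, on 3 nPM and 2 control females and 3 males of each. The difference was below 0 for 10 of 10 genes, from -0.77 for Gp1ba to -1.80 for Ppbp, with a median of -1.12 beside 0.08 over all genes tested. At an unadjusted p under 0.05, 8 of the 10 genes passed, all lower, where 10.7% of all genes passed in either direction and 5.65% as lower. Ppbp and Gp5 also had a p under 0.005, as did 0.902% of all genes. None had an adjusted p under 0.05 (0% of all genes), and their adjusted p-values from edgeR were 0.452 to 0.518. Over the 23 other fits 1 value passed, Ppbp with an edgeR adjusted p of 0.0194 when genes with 1 count in any library were tested.

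The difference for Ppbp was -1.80 (SE 0.53, unadjusted edgeR p of 0.00281). In females Ppbp was at 25.0 (V4) and 40.7 (V17) CPM in controls and at 56.2 (V18), 92.6 (V1) and 149 (V3) CPM after nPM. In males it was at 53.1, 57.8 and 86.7 CPM in controls and at 44.9, 70.2 and 82.9 CPM after nPM. The female groups did not overlap, and the male groups did. The log2 fold change was 1.70 (SE 0.39) in females and -0.11 (SE 0.34) in males.

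Gp5, a subunit of the von Willebrand factor receptor that thrombin can cleave, had a difference of -1.41 (SE 0.38, unadjusted edgeR p of 0.00145). In females it was at 3.37 and 5.01 CPM in controls and at 6.77, 7.205 and 9.01 CPM after nPM. In males it was at 6.13, 6.79 and 8.32 CPM in controls and at 4.59, 5.65 and 6.13 CPM after nPM. The female groups did not overlap, and the male groups met at 6.13 CPM. The log2 fold change was 0.94 (SE 0.28) in females and -0.47 (SE 0.25) in males.

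F13a1 had a difference of -1.24 (SE 0.45), and Tubb1 one of -1.20 (SE 0.44). F13a1 was at 6.49 and 7.97 CPM in control females and at 10.1, 16.6 and 22.0 CPM in nPM females, while the male controls lay close together at 10.6 to 11.2 CPM and the nPM males at 7.21 to 13.5 CPM. For Gp1bb it was -1.14 (SE 0.50), for Itga2b -1.10 (SE 0.42), for Pf4 -0.99 (SE 0.42) and for Gp9 -0.98 (SE 0.40). Gp6 (-0.82, SE 0.47) and Gp1ba (-0.77, SE 0.41) did not pass an unadjusted p of 0.05.

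In females alone, from the same fit, the log2 fold changes were 0.44 (Gp6) to 1.70 (Ppbp), with a median of 0.84 beside -0.04 over all genes. Of the 10 genes, 8 had an unadjusted p under 0.05, all higher, where 9.33% of all genes passed and 5.07% as higher. None had an adjusted p under 0.05, as 0.02% of all genes did. In the other fits Ppbp passed with DESeq2 (adjusted p of 0.00575) and, when genes with 1 count in any library were tested, with edgeR (adjusted p of 0.00041). The 3 nPM females lay above both control females in 7 genes (Pf4, Ppbp, Itga2b, Gp1ba, Gp5, Gp9 and F13a1), as they did in 7.65% of all genes tested. In plain CPM the female groups overlapped for Pf4, Gp1ba and Gp9, where V18 lay below V4. In males the log2 fold changes were -0.47 (Gp5) to -0.07 (F13a1), with a median of -0.28 beside 0.02 over all genes, and none passed an unadjusted p of 0.05 (4.99% of all genes) or an adjusted one (0%). All 3 nPM males were below all control males for 3 genes, Gp6, Gp9 and Tubb1, as they were in 4.9% of all genes tested. In plain CPM the male groups overlapped for each of these 3 genes.

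**Figure D3:**
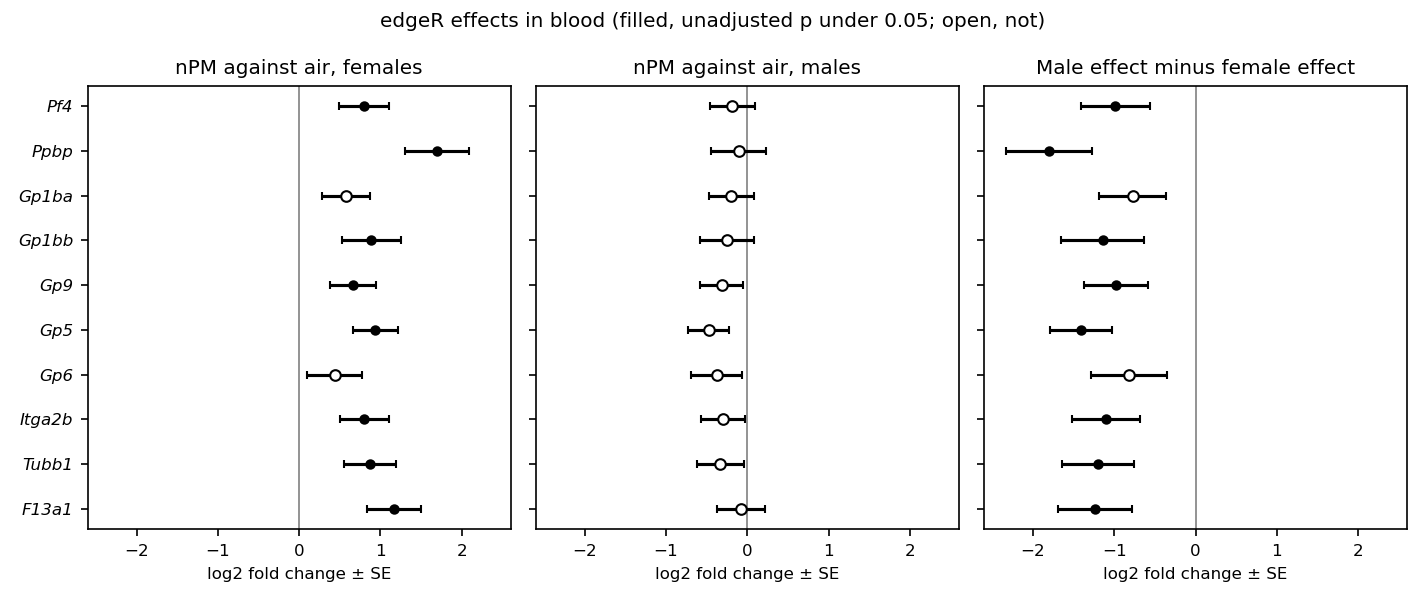
Log2 fold change with its SE (x axes) of each gene in blood for nPM against air in females, in males, and for the male effect minus the female effect, from the edgeR fit. Points of females lie above 0 and those of the difference below 0 for all 10 genes, and filled points passed an unadjusted p of 0.05.

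These results rested on few females. Without V3, 2 of the 10 genes passed an unadjusted p of 0.05 for the difference between the sexes (median -0.68), where 2.76% of all genes passed as lower in the same fit. Without V4 also 2 passed (median -0.86), beside 1.79% of all genes, and without V18 all 10 (median -1.52), beside 8.96%. With V2 in the fit 3 passed, with a median of -1.76, beside 4.06%. Without the male V5 5 passed (median -0.91), beside 3.57%. All 10 differences were below 0 in each of 23 other fits, but with library totals in place of TMM factors 2 passed (median -0.81, beside 0.49 over all genes), where 1.22% of all genes passed as lower. Without V4, Ppbp had a difference of -1.48 and Gp5 of -1.13, and without V3 -1.18 and -1.29.

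The lanes were unequal too. Within lane 1, the 2 nPM females V1 and V3 differed from V4 by a median log2 difference of 1.08, with 10 of 10 genes higher. Within lane 3, 1 nPM female (V18) against 1 control female (V17) gave 0.16, with 8 of 10 genes higher. For males the medians were -0.25 in lane 1 (0 of 10 genes higher) and -0.08 in lane 3 (4 of 10 higher).

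Over both exposures together the 10 genes did not differ between male and female pups in a common direction. With exposure and RIN in the model, 5 were higher and 5 lower in males, with a median of 0.01 beside 0.03 over all genes. None passed an unadjusted p of 0.05 (4.54% of all genes) or an adjusted one (0%). Within the exposure groups the sexes lay in opposite order. Among controls the mean of the 3 males was above that of the 2 females in 10 of 10 genes, and the groups did not overlap in 8 (all but Gp1bb and Gp6), as in 8.83% of all genes tested, whereas in plain CPM they did not overlap in 3 (3.55%). After nPM the mean of the males was below that of the females in 10 of 10 genes, and Gp5 alone did not overlap (4.86% of all genes), with none in plain CPM (1.67%). These are the libraries that gave the difference between the sexes in the nPM effect, so they add no separate evidence for it.

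Other genes of platelets and megakaryocytes were compared by lists. Of 25 receptor and agonist pathway genes 23 were tested, and 22 had a difference between the sexes below 0 (median -1.03), with 12 at an unadjusted p under 0.05 and none at an adjusted p under 0.05. Over all genes tested, 54.1% were above 0 and 10.7% had an unadjusted p under 0.05, 5.65% as lower. These 12 were Itgb3, the beta chain of the fibrinogen receptor (-1.40), the adhesion receptors Itgb1 (-1.12) and Itga6 (-1.13), the nucleotide receptors P2ry1 (-1.17) and P2rx1 (-1.62), F2rl2 (-1.60), Treml1 (-1.22), Mpig6b (-1.33), Cd151 (-1.03), Esam (-1.25), Fcer1g (-1.02) and Alox12 (-1.24). F2rl2, P2rx1 and Mpig6b had a p under 0.005. Itgb3, whose protein pairs with that of Itga2b, was at 165 CPM in V3 and at most 80.1 CPM in the other 5 nPM libraries. Cd9, a tetraspanin with the highest level per kb of this list, had -0.71 (SE 0.39).

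Of 24 cytoskeletal genes of platelet formation, 20 were below 0 (median -0.71), and 9 passed an unadjusted p of 0.05, all lower (5.65% of all genes). They were Vcl (-1.26), Tpm4 (-1.23), the alpha-tubulin Tuba4a (-1.21), the myosin light chain Myl9 (-1.20), Tubb2a (-1.16), Parvb (-0.97), filamin A, Flna (-0.90), Zyx (-0.84) and Bin2 (-0.80). Cfl1, cofilin, was among the 3 most abundant of this list per kb and had -0.58 (SE 0.38).

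Granule proteins were divided. Of 26 listed 20 were tested, with 12 below 0 and 8 above (median -0.23), and 4 passed, thrombospondin 1, Thbs1 (-1.42), Vwf (-1.17), Clu (-1.03) and Srgn (-0.99), all lower (5.65% of all genes). For the nPM effect over both sexes, Selp, the granule membrane adhesion molecule P-selectin (1.05, SE 0.49), and Serpine2, a protease inhibitor (0.74, SE 0.32), had an unadjusted p under 0.05, as 3.11% of all genes did, both at under 1 CPM per kb. Signalling genes had a median of -0.21 with 15 of 26 below 0, and only Fermt3, which activates integrins, passed (-0.93), so that 1 of 26 is no larger a share than the 10.7% of all genes. Rap1b (-0.48, SE 0.39) and Rgs18 (-0.55, SE 0.43) were among the most abundant of that list. All of these had adjusted p-values of 0.452 or higher from edgeR.

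The regulators of megakaryocytes were divided. Of 21 such genes 18 were tested, with 10 below 0 and 8 above (median -0.17). At an unadjusted p under 0.05, 3 were lower and 1 was higher, where 10.7% of all genes passed. Among them were the transcription factors Nfe2 (-1.02) and Tal1 (-0.80) as lower and Ets1, which lymphocytes also express, as higher (1.13). Lmo2 and Gata1, which erythroid cells share, had -0.77 (SE 0.40) and -0.88 (SE 0.43). Over both sexes 1 regulator was lower and 1 higher after nPM at an unadjusted p under 0.05, where 3.11% of all genes passed. The lower one was Gfi1b (-0.83, SE 0.29, unadjusted edgeR p of 0.0103), and the higher one is not named here. Of the 29 list genes named above for an unadjusted p under 0.05 in the difference between the sexes, 3 (F2rl2, Fcer1g and Mpig6b) passed in each of the 11 fits without 1 library. Bin2 and Tal1 lost that p in 6 of these fits, and Cd151 and Flna in 7. For the nPM effect Selp lost it in 7, Serpine2 in 6 and Gfi1b in 2.

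**Figure D4:**
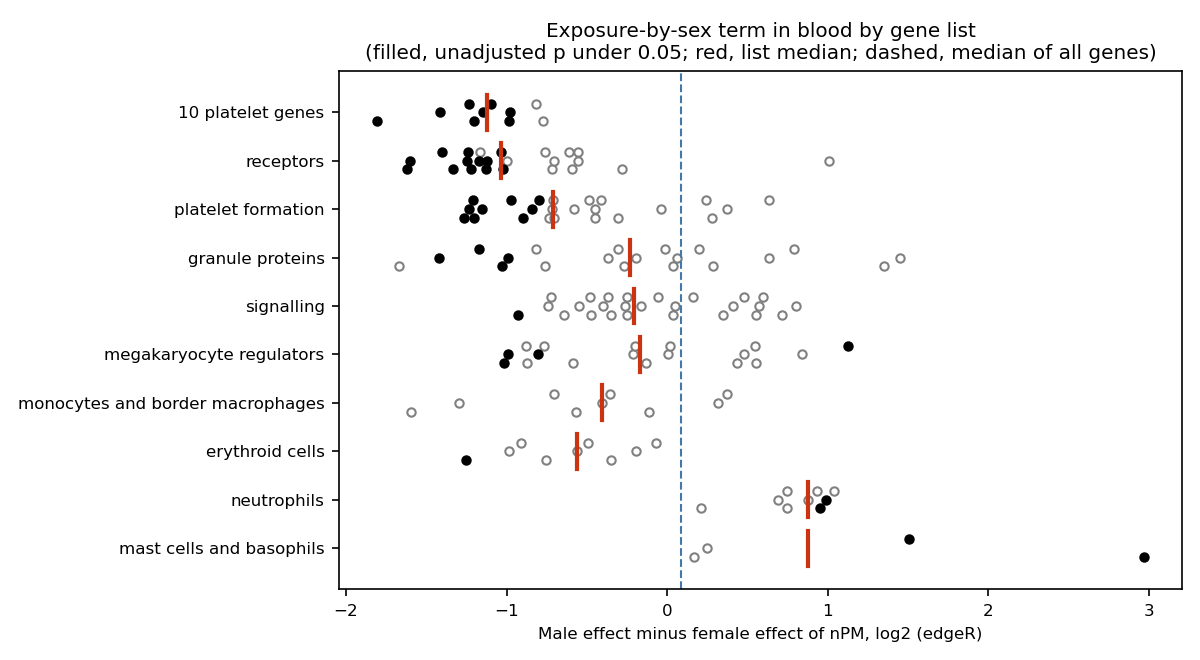
Effect of nPM in males minus that in females (x axis, log2) for the tested genes of each list in blood, 1 point per gene, filled at an unadjusted p under 0.05, with the list median in red and the median of all 9977 genes dashed. The 10 platelet genes and the receptors lie to the left, and neutrophil genes to the right.

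Genes of other blood cells are given beside this, and none of them had an adjusted p under 0.05, while 10.7% of all genes had an unadjusted p under 0.05. Of 10 neutrophil genes 9 were tested, and all 9 were above 0 (median 0.88), S100a8 (0.95) and Camp (0.99) with an unadjusted p under 0.05 (2 of 9). The summed plain level of the neutrophil list was 156 CPM in V4, the highest of the 11 libraries, and 70.0 CPM in V3, where only V8 at 62.7 CPM was lower, and its most abundant gene was S100a9. After TMM scaling V4 (factor 1.28) was no longer the highest, as V17, at 126 plain CPM with a factor of 0.870, lay above it. In plain CPM V4 was not the lowest library in the summed level of the 10 platelet genes. It was still the lowest for Ppbp, Gp1bb, Gp5 and Tubb1. Erythroid genes were all below 0 (9 of 9, median -0.56), 1 of them with an unadjusted p under 0.05. Globin genes took 66.2% of the counts of V3, the lowest share of the 11, and 73.1% of V4. The RIN was 7.6 in V3 and 8.2 in V4. The 12 monocyte and macrophage genes had 9 tested and a median of -0.41, with none at an unadjusted p under 0.05, and their summed level was 104 CPM in V3 and 75.2 CPM in V4. Mast cell and basophil genes were above 0 in 4 of 4, with Ms4a2 (2.97) and Hdc (1.504) passing, from 1 to 38 counts per library. Of endothelial genes 3 of 10 were tested, with a median of -0.70, and of neuronal genes 3 of 10, with a median of -0.56. With globin genes left out 8 of the 10 platelet genes passed an unadjusted p of 0.05, all lower, where 5.64% of all genes did, and without RIN 7 did, where 3.19% of all genes did. The part of the other cell types in the result was not tested.

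In cortex 5 of the 10 genes were near the limit of detection. Every blood library was above every cortex library in 9 of the 10 genes, as in 7.28% of the 9977 genes, and Gp1bb was the exception. Ppbp had 0 to 5 counts per cortex library, Gp6 0 to 4, Tubb1 0 to 5, Gp1ba 0 to 6 and Gp9 0 to 7, where 3 counts, the limit that a count of 0 allows, stand for 0.0887 to 0.135 CPM. The mean cortex level of Ppbp was 0.0881% of its blood level and that of Tubb1 0.127%, near the 0.0695% of Hbb-bs and the 0.0332 to 0.0695% of the 4 globin genes. Gp9 was at 0.296%, Gp6 at 0.378% and Gp1ba at 0.558%. Of the 8 counts of Gp1ba in cortex 6 were in V16, and without it Gp1ba was at 0.18%.

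Pf4, Itga2b, Gp5 and F13a1 were present in cortex in larger shares. Pf4 was at 1.22 ± 0.376 CPM (SD, n = 12), 2.53% of its blood level, Itga2b at 1.80 ± 0.386 CPM (2.77%) and Gp5 at 0.530 ± 0.191 CPM (8.49%). F13a1 was at 3.69 ± 0.915 CPM, 32.0% of its blood level, and macrophages also express it. Markers of macrophages at the borders of the brain were found in every cortex library, with Mrc1 at 437 to 749 counts and Lyve1 at 36 to 80, while the monocyte marker Ly6c2 was at 0 in 9 of 12. Ccr2, also a monocyte marker, had 2 to 7 counts in every cortex library (2.59% of its mean blood level), and Lyz2, which macrophages share, had 118 to 215 (8.49%). Whether these cells held the Pf4 and F13a1 transcripts was not tested.

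Gp1bb was at 192 to 367 counts in cortex and 67 to 224 in the 11 blood libraries, and it is uncertain in both tissues. It lies on the minus strand of chromosome 16 of mm10, from 18620319 to 18622403, and 593 bases of it overlap Sept5, a gene on the same strand with a mean of 269 CPM in cortex and 0.379 CPM in blood. In a later annotation of this build (Gencode M21), 1902 of the 2087 exonic bases of Gp1bb are shared with exons of Sept5. Reads from shared bases may not be assignable to either gene, so the blood values of Gp1bb carry this limit too. Itga2b and Gp6 overlap small RNA genes that had at most 1 count.

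**Figure D5:**
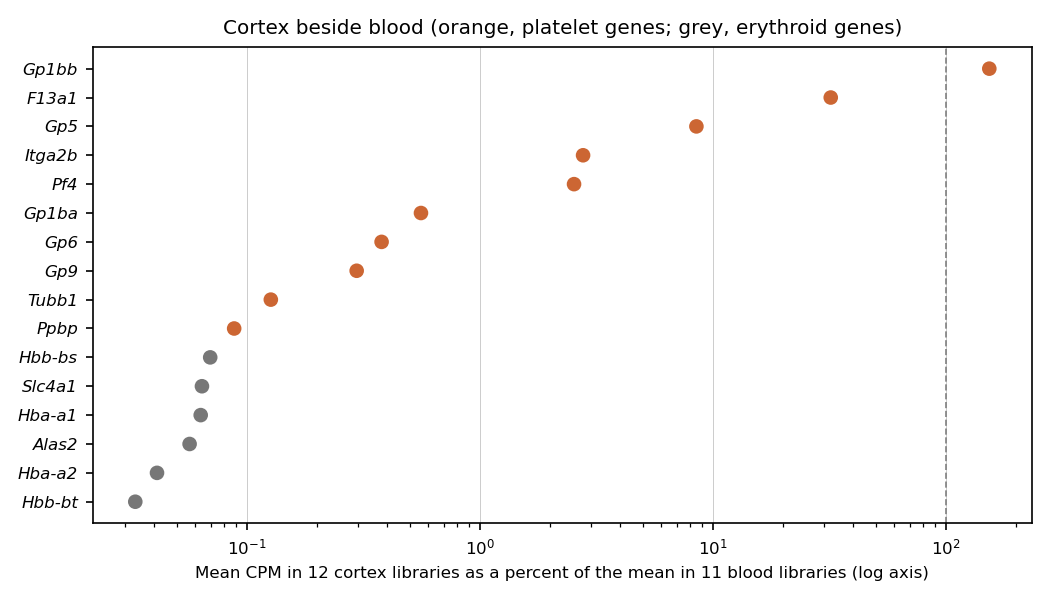
Mean CPM in 12 cortex libraries as a percent of the mean in 11 blood libraries (x axis, log scale), with platelet genes in orange and erythroid genes in grey. Ppbp and Tubb1 lie next to the erythroid genes, and F13a1 and Gp1bb, which overlaps Sept5, far above them.

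For nPM against control in cortex, 5 of the 10 genes had a count in every library and were tested, Pf4, Itga2b, Gp1bb, Gp5 and F13a1. Their median log2 fold change was 0.16 beside 0.00 over all 20857 genes tested. F13a1 had an unadjusted p under 0.05, as 5.67% of all genes did, and none of the 5 had a p under 0.005 (0.614%) or an adjusted p under 0.05 (0.0144%). F13a1 was at 1.82, 3.41 and 3.89 scaled CPM in controls (lowest, median and highest) and at 3.25, 4.30 and 4.93 scaled CPM in nPM pups. The groups overlapped. The difference on the log2 scale was 0.38 (SE 0.16, edgeR adjusted p = 0.862). An exact permutation test over 6 against 6 libraries gave p = 0.0455. With 1 library left out it no longer passed an unadjusted p of 0.05 in 7 of 12 fits. The lowest F13a1 value was that of the control V14. The endothelial genes of V14 summed to 130 CPM, against 186 to 200 CPM in the other cortex libraries, and their part was not tested.

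Pf4 (0.16, SE 0.26), Itga2b (0.21, SE 0.18), Gp5 (0.08, SE 0.30) and Gp1bb (-0.12, SE 0.12) differed by less than the spread between libraries. Of 12 macrophage and monocyte genes 11 were tested in cortex, 7 of them higher after nPM (median 0.05). Among them Cbr2, of border macrophages, had an unadjusted p under 0.05 (0.69, SE 0.24), as 5.67% of all genes did. The summed level of that list was 129 to 167 CPM in controls and 146 to 170 CPM after nPM. Its part in the F13a1 difference was not tested. Ppbp, Gp6, Gp9, Tubb1 and Gp1ba were not in this test, because each had no count in at least 1 library. Ppbp was at 0 counts in 4 of the 6 controls and at 2 and 3 in the other 2, and at 1, 2, 2, 3, 4 and 5 counts in the nPM pups, 5 against 17 counts in all. The groups overlapped. An exact permutation test, 1 of 10 such tests in cortex, gave p = 0.0238. In the edgeR fit with genes of 1 count in any library, its log2 fold change was 1.40 (SE 0.86, edgeR adjusted p = 0.919) and its unadjusted p was 0.106, where 6.23% of all genes had one under 0.05. Of the 9 erythroid genes in cortex 2 were higher after nPM, with a log2 median of -0.03. The other 4 genes had 2 to 22 counts in a group in all, log2 fold changes of -0.38 (Gp1ba) to 0.79 (Gp6) in that fit and exact permutation p-values of 0.452 to 1.00.

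Of the other platelet lists in cortex, receptors had 18 of 25 genes tested with a median of 0.02, granule proteins 20 of 26 (0.03), signalling 25 of 26 (0.00), regulators 17 of 21 (0.03) and platelet formation 24 of 24 (-0.01). At an unadjusted p under 0.05 were Thbs1 (0.19), P2ry1 (0.53) and F2r (0.23) as higher and Itgb3 (-0.18), Btk (-0.43), Plcg2 (-0.30) and Dok2 (-0.51) as lower, and none passed an adjusted p of 0.05. These 7 of 104 genes tested (6.73%) are a share near the 5.67% of all genes.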

How the data were processed

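RNA of whole blood and cortex was depleted of ribosomal RNA and sequenced. Per the labels and the study's methods, the authors trimmed reads (Trimmomatic) and aligned them to mm10 (GRCm38) by HISAT2, and featureCounts 1.5.0-p3 assigned them to genes of Gencode M11. The deposited values are raw counts of reads per gene, without normalization. Strandedness is not given in the sources used here, so reads of overlapping genes may not be separable. The deposited gene table gave coordinates and lengths, and its mean expression values were not used.

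The study left out 1 blood sample for its count distribution without naming it in its text. V2, which stood apart, was left out here. A gene needed 1 count or more in each library to enter a fit. Counts were scaled with TMM and tested with edgeR 4.0.16 in R 4.3.3 (quasi-likelihood F test, two-sided, prior count 0.5) with exposure, sex and RIN, plus exposure by sex for the difference between the sexes. Adjusted p-values are those of Benjamini and Hochberg over all genes tested. An unadjusted p of 0.005 was the study's threshold, and an unadjusted p of 0.05 was used for counts within lists. Single genes were compared on log2 (scaled CPM + 0.5) with an exact permutation test in scipy 1.17.1. Alternatives used limma 3.58.1 and DESeq2 1.42.0, other filters, scalings and covariates, and fits without each library. The scripts were tested on simulated data in which 200 genes had a true fold of 2. At p under 0.005 edgeR recovered 105 of 188 tested genes in the blood comparison of exposures (9589 genes) and 166 of 197 in cortex (20396 genes).

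The 10 genes and all lists were chosen with earlier results of these data known. Named from each other platelet list are the 3 genes with the highest level per kb and those with an unadjusted p under 0.05 for the exposure effect or its difference between the sexes in blood. The regulators counted at such a p are not all named. Also named are the 10 genes most like the mean profile and genes that overlap one of the 10. Ahsp of the erythroid list was not analysed here, and single results of some list genes are not reported here. No 2 libraries were copies, as their counts differed by a chi-square per gene of 18.2 or more in blood and 7.23 or more in cortex, where sampling gives 1. Limits from a count of 0 use 3 counts and cover counting error only, since PCR copies of reads are not independent molecules.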

Additional observations from a re-analysis of the deposited data

Results flagged for a closer look

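In the nPM group of blood, V3 lay far above the other 5 libraries for Gp9 (55.8 scaled CPM, next highest 38.8), the only one of the 10 genes with such a gap. The same held for V3 in 13 other platelet or similar genes, with scaled CPM of 7.98 for Acer2, 53.6 for Alox12, 15.4 for Bin2, 190 for Flna, 22.0 for Ilk, 165 for Itgb3, 10.98 for Mpig6b, 19.2 for P2rx1, 4.53 for P2ry1, 353 for Thbs1, 95.4 for Tpm4, 22.0 for Tubb2a and 30.6 for Vcl. These values share 1 library. Among the blood controls, V4 lay far below the other 4 for Lmo2 (84.3 against 142 scaled CPM), and in cortex controls V24 was low for Itga2b (1.14 against 1.66). By chance about 1 in 20 groups has such a gap, and 114 were examined.

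The effect of nPM in blood differed between males and females at an unadjusted edgeR p under 0.005 for Ppbp (-1.80), Gp5 (-1.41), Acer2 (-2.31), F2rl2 (-1.60), Mpig6b (-1.33) and P2rx1 (-1.62), all log2 values of the male minus the female effect, and none had an adjusted p under 0.05. In V2, which no main comparison used, F13a1 was at 21.7 plain CPM, above the 6.93 to 11.8 CPM of the other controls. With TMM scaling over the 12 libraries the direction turned, and F13a1 was at 3.33 scaled CPM in V2 against 7.71 to 13.3 in the other controls. V2 also had 473 counts of Mrc1 and 3574 of Fn1, where the other 11 blood libraries had at most 29 and 301, and the part of these cells in its F13a1 level was not tested.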

How the results depend on the processing

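No paired analysis was possible because the replicate numbers follow accession order and tie no samples to each other. As the study describes both tissues as from the same animals, cortex is not a separate set of pups beside blood. The difference between the sexes in the nPM effect was below 0 for all 10 genes in each of 23 other fits (230 values), of which 37 lost and 4 gained an unadjusted p under 0.05. For the nPM effect over both sexes 14 of 230 values changed sign, and the cause was not tested. Gp6 was at 0.0097 with DESeq2, 0.0107 with RLE scaling, 0.31 with all 12 blood libraries and 0.0555 with library totals in place of TMM. In males, Ppbp was at 0.0032 without RIN, and with library totals Ppbp was at 0.11, Pf4 at 0.0418, Gp1ba at 0.0361 and F13a1 at 0.14. With totals outside globins, Ppbp was at 0.0837, Pf4 at 0.007 and F13a1 at 0.0919 in males. These scalings without TMM were chosen after seeing the data.

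For the nPM effect, the count of the 10 genes at an unadjusted p under 0.05 (0 in the report) was 1 with limma voom, DESeq2, a minimum of 10 counts and no RIN, and 2 with 1 count in any library and with both scalings without TMM. All genes at p under 0.005 (17) numbered 106 with 1 count in any library, 7 with a minimum of 10 counts, 9 with lane, 5 with all 12 libraries and 6 with each scaling without TMM. Genes at an adjusted p under 0.05 (0) numbered 1 with DESeq2, 28 with 1 count in any library and 1 with totals outside globins. For the difference between the sexes, genes at p under 0.005 (90) numbered 323 with 1 count in any library, 53 with a minimum of 10 and 140 with totals outside globins, and at an adjusted p under 0.05 (0) 4 with DESeq2 and 81 with 1 count in any library. With all 12 libraries, 3 of the 10 genes passed (8), with a median of -1.76. With library totals 2 passed, and with totals outside globins 3 did, with a median of -0.68. In females, genes at an adjusted p under 0.05 (2) numbered 0 with limma voom, filterByExpr and all 12 libraries, 63 with 1 count in any library, 1 with library totals and 5 with totals outside globins. Of the 10 genes 5 passed in females with each scaling without TMM (8), and the median with all 12 libraries was 1.46. In males that adjusted count (0) was 1 with DESeq2 and 58 with 1 count in any library, and for sex (0) 330 with 1 count in any library. In cortex it (3) was 22 with DESeq2, 185 with 1 count in any library, 1 without RIN and 1 with lane, and 526 genes (128) had p under 0.005 with 1 count in any library.

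With each library left out in turn, the nPM effect had 11 to 37 genes at p under 0.005 and 0 to 2 of the 10 genes at p under 0.05. The difference between the sexes had 26 to 272 genes at p under 0.005, 0 to 1 at an adjusted p under 0.05, 2 to 10 of the 10 genes at p under 0.05 and a median of -1.52 to -0.68. In females 0 to 4 genes passed the adjusted p, 2 to 10 of the 10 genes passed p under 0.05 and their median was 0.50 to 1.15. In males 0 to 2 genes and 0 to 2 of the 10 passed, and for sex 0 to 1 gene. In cortex 68 to 315 genes had p under 0.005, 0 to 6 an adjusted p under 0.05 and 0 to 1 of the members p under 0.05. Signs changed for Tubb1 (-0.0221 to 0.31), Gp9 (-0.0383 to 0.22), Gp6 (-0.21 to 0.10) and Gp5 (-0.073 to 0.31) in the nPM effect, for Gp6 in females (-0.16 to 0.93), for Ppbp (-0.31 to 0.12), F13a1 (-0.34 to 0.13) and Gp1bb (-0.57 to 0.0388) in males, and for Pf4 (-0.0224 to 0.29) and Gp5 (-0.0687 to 0.24) in cortex. Fits without V4 or V17 leave 1 control female, which is assumed to vary like the other groups. Depth limits 5 of the 10 genes in cortex, which had no count in at least 1 library.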
